A study of Homo sapiens with 50 samples.

Results

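The genes of the unfolded protein response of the endoplasmic reticulum (ER) and the heat shock chaperones of the cytosol and mitochondria, 38 in all, were followed across 50 arrays of the human lung carcinoma line H1299. They were taken by gene name from the 24044 gene names on the array. The 38 genes comprised 4 sensors and factors of the unfolded protein response, 10 members of the ER Hsp70 and Hsp90 system, 7 genes of lectin and disulfide folding, 4 genes of ER-associated degradation, 11 cytosolic heat shock genes and 2 mitochondrial chaperone genes. Each gene was given by its brightest probe, and 37 passed the criterion on background. The exception was ERN1, the kinase and nuclease that splices XBP1 messenger RNA, which was well above background on 15 of 50 arrays.

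Proteins that enter the ER are folded by Hsp70 and Hsp90 chaperones, by the lectins calnexin and calreticulin and by disulfide isomerases. When unfolded protein collects there, the sensors IRE1, PERK and ATF6 raise the transcription of these helpers and of genes that return misfolded protein to the cytosol for degradation. In the cytosol the factor HSF1 does the same for the heat shock proteins, and tumour cells are known for a high level of both systems.

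The study asked how the DNA damage response protein RAD9 affects cells that were hit by radiation and their unirradiated neighbours, the bystander cells. It compared parental H1299 cells with H1299shRAD9 cells, which carry a retroviral pSUPER.retro.puro vector that expresses a short hairpin RNA against RAD9 and were selected as stable clones. The labels do not give the clone of a sample, and they name no vector for the parental line. Each line had 5 groups of 5 samples, all collected at 4 h. CTL cells were sham irradiated. DBP and DBN cells were hit by 1 Gy of 4He ions (125 keV per micron), and BP and BN cells were their bystander partners on the other surface of the same dish. P and N stand for bystander positive and negative dishes, a class the study gave from the micronuclei it counted. BP and BN therefore differ by an outcome of the cells and not by treatment.

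The expression level used throughout was log2 of the processed intensity minus the median of the array over its probes, so that 0 is the median probe and a difference of 1 is a doubling. Between 55.2% and 83.3% of probes were well above background on an array. KRT8, KRT18 and VIM, which mark the carcinoma line, were above background on 50 of 50 arrays. Of the markers of cells that should be absent, HBB was above background on 1 array, PECAM1 on 2 and COL1A1 on 8. CD3E (38 arrays) and DCN (44) had mean levels below the median probe, at -1.38 and -1.29. CDH5 and PTPRC were above background on 50 arrays each, with mean levels of 1.32 and 0.57, above the median probe. The part of these markers in the results was not tested. RAD9A, the targeted gene, had a mean level of 3.65 ± 0.19 (SD, n = 5) in H1299shRAD9 CTL and 4.01 ± 0.13 (SD, n = 5) in H1299 CTL, with ranges from 3.34 to 3.85 and from 3.82 to 4.18. The gap was smaller or absent elsewhere, and the groups overlapped in all of these. The H1299shRAD9 and H1299 means were 3.79 and 4.13 in DBP, 3.68 and 3.80 in BP and 3.69 and 3.80 in BN. In DBN they were 3.80 ± 0.27 and 3.75 ± 0.61 (SD, n = 5), with H1299shRAD9 on the higher side, so RAD9A RNA set the lines apart least clearly there.

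Some parental arrays stood apart. The replicate 2 arrays of H1299 DBN, DBP and BP had 255 to 600 features that lay more than 2 log2 units from the median of their line, against 1 to 160 on the other 22 H1299 arrays and 1 to 117 on the 25 H1299shRAD9 arrays. The arrays were spread over 13 slides, of which 2 held both lines, and only 1 of these held both lines of an exposure group (BP). Slide and cell line are thus nearly the same split in the comparisons of the lines, and fits over all groups with the slide as a term are given beside the results. Several differences between the lines are given with and without the replicate 2 arrays. Differences from CTL in H1299 and the tests of response between the lines are given only with them.

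The promoters of the ER members and of the cytosolic members held different motifs. In the RefSeq table of promoters (250 bases before to 50 bases after each start site, build GRCh38.p14), 36 of the 38 genes had an entry. The ER stress element, written CCAAT, 9 bases of any kind and CCACG on either strand, was found for 7 of 36 genes (19.4%), against 25 of all 27305 genes (0.0916%). All 7 belong to the ER, and 0 of the 12 cytosolic and mitochondrial genes held it. They are shown because this element is the best known docking site of NF-Y with ATF6 or XBP1. Capitals mark CCAAT and CCACG, or their reverse complements, and each sequence runs 5′ to 3′ on the strand of the gene.
XBP1 (GRCh38.p14 chr22:28800588-28800636, minus strand): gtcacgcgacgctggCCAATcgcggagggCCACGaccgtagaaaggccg
HSPA5 (GRCh38.p14 chr9:125241376-125241424, minus strand): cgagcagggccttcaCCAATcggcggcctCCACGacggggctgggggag
HSP90B1 (GRCh38.p14 chr12:103930201-103930354, plus strand): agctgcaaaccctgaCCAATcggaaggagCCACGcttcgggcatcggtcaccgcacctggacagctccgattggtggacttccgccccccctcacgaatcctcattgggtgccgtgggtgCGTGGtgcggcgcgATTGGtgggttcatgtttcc
CRELD2 (GRCh38.p14 chr22:49918539-49918587, plus strand): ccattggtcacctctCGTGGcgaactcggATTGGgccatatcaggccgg
CALR (GRCh38.p14 chr19:12938369-12938417, plus strand): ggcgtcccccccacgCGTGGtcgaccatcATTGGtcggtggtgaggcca
CANX (GRCh38.p14 chr5:179698763-179698811, plus strand): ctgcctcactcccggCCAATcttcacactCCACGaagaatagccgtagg
PDIA6 (GRCh38.p14 chr2:10812838-10812886, minus strand): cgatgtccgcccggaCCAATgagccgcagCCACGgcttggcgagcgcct

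At the start sites shown, the element lay within positions -225 to -34 from the start, and HSP90B1 carried it once on each strand. The heat shock element, written as 3 alternating GAA and TTC units with 2 bases of any kind between units, was found for 5 of 36 genes (13.9%), against 166 of all genes (0.608%). These 5 genes made up 5 of 12 cytosolic and mitochondrial genes (41.7%), and 0 of 24 ER genes held it. The pattern reads GAA, TTC, GAA or TTC, GAA, TTC, and both are matched. Apart from DNAJA1, where the match lay just after the start site, the genes are shown with the units in capitals.
HSPA8 (GRCh38.p14 chr11:123062164-123062381, minus strand): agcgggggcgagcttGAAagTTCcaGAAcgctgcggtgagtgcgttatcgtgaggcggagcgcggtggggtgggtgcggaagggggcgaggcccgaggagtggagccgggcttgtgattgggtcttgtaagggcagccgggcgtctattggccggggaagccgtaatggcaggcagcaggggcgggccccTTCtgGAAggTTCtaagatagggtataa
HSP90AA1 (GRCh38.p14 chr14:102087105-102087147, minus strand): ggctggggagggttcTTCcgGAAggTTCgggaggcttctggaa
HSP90AB1 (GRCh38.p14 chr6:44247763-44247858, plus strand): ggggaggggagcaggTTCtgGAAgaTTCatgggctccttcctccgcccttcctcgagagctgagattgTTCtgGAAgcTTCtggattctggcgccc
HSPD1 (GRCh38.p14 chr2:197500053-197500090, minus strand): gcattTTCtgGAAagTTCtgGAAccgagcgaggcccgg

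In HSPD1 the capitals join 2 overlapping matches. The UPR element core TGACGTG was present for HYOU1, DNAJC10 and HSP90AB1 (8.33% of members, 2.4% of all genes), where HSP90AB1 is cytosolic. CCACG alone was found for 26 of 36 genes (72.2%, against 42.1% of all genes) and CCAAT alone also for 26 of 36 (72.2%, against 39.7%), and both lie inside the ER stress element. A match describes letters and is not evidence of binding, and its absence says only that these letters are not in this window.

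**Figure D1:**
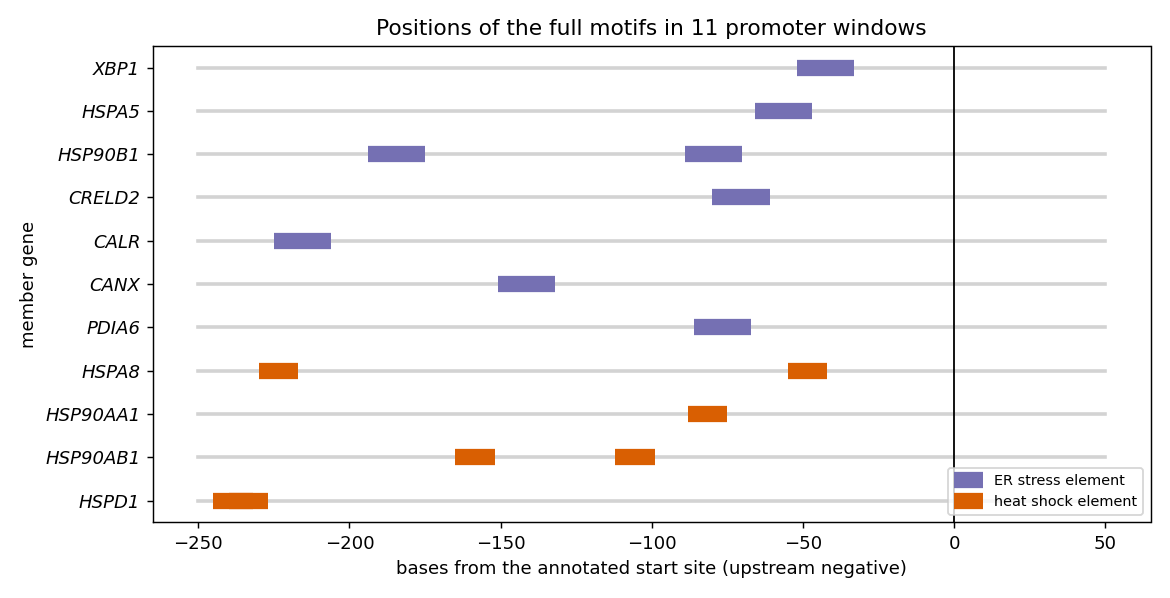
Positions of the ER stress element (purple) and of the heat shock element (orange) in 11 promoter windows of 300 bases, with distance from the annotated start site in bases on the x axis and 1 gene per row. The 7 upper genes are ER genes with the ER stress element, and the 4 lower ones are cytosolic or mitochondrial genes with the heat shock element.

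In unirradiated cells, 4 of the 37 tested genes were higher and 1 was lower in H1299shRAD9 than in H1299. The higher genes were HSPE1, the mitochondrial co-chaperonin (1.54-fold), HSP90AA1, the inducible cytosolic Hsp90 (1.49-fold, by 1 of 3 probes, saturated on 2 arrays of each group), DNAJB1, the Hsp40 that activates cytosolic Hsp70 (1.42-fold), and SDF2L1, a partner of the ER Hsp40 proteins (1.31-fold). The lower gene was ERO1L (ERO1A in current naming), the oxidase that drives disulfide formation in the ER (0.739-fold). With quantile normalization the split was 0 higher and 1 lower (ERO1L), and with normexp background correction 1 higher (HSPE1) and 3 lower (ERO1L, DNAJC3 and PDIA6). Calls used limma with an unadjusted p under 0.005 and a Benjamini-Hochberg false discovery rate under 10% over all 20079 features. The 5 calls are 13.5% of the members, and 13% of all features passed the same test, so the share of members called was near the background. An unadjusted p under 0.05 was reached by 11 members and by 33.9% of all features. The median difference over the members was 0.11 on the log2 scale, beside 0.06 over all features. Bulk RNA cannot tell fewer cells that express a gene from less RNA per cell.

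HSPE1 (chr2:198367803-198367942, hg19, plus strand) had log2 levels of 9.71, 9.58, 9.72, 10.01 and 10.02 on the H1299 CTL arrays. On the H1299shRAD9 CTL arrays it had 10.12, 10.18, 10.63, 10.55 and 10.65. The groups did not overlap, and the log2 difference was 0.62 (SE 0.14, limma adjusted p = 0.0176). The other HSPE1 probe also passed, with a log2 difference of 0.63 (limma adjusted p = 0.0174). It lies at chr2:198367823-198367882, within the genomic span of the first and on the same arrays, so it is not separate evidence. HSPD1, the chaperonin that HSPE1 partners, had 0.36 (SE 0.15, limma adjusted p = 0.1088).

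HSP90AA1 (chr14:102547395-102547454, hg19, minus strand) had log2 levels of 11.89, 11.34, 10.95, 11.52 and 11.63 on the H1299 CTL arrays. On the H1299shRAD9 CTL arrays it had 11.84, 12.13, 12.07, 12.19 and 11.99. Replicate 1 of H1299 was above replicate 1 of H1299shRAD9, so the groups overlapped, and the log2 difference was 0.58 (SE 0.16, limma adjusted p = 0.0326). This probe was saturated on 2 arrays of each group, and the other probes of the gene had log2 differences of 0.23 and 0.11, with limma adjusted p of 0.4122 and 0.6948. With quantile normalization the difference was 0.18 and did not pass.

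DNAJB1 had log2 levels of 6.86, 6.48, 7.08, 6.93 and 6.93 on the H1299 CTL arrays. On the H1299shRAD9 CTL arrays it had 7.41, 7.16, 7.42, 7.38 and 7.44. The lowest H1299shRAD9 array was above the highest H1299 array, and the log2 difference was 0.505 (SE 0.12, limma adjusted p = 0.0217). SDF2L1 had group means of 7.88 ± 0.18 and 8.27 ± 0.06 (SD, n = 5), with no overlap and a log2 difference of 0.39 (SE 0.11, limma adjusted p = 0.032). ERO1L had 4.03 ± 0.11 and 3.59 ± 0.18 (SD, n = 5), again with no overlap, and differed by -0.44 (SE 0.11, limma adjusted p = 0.0256).

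The number of calls in CTL fell whichever replicate was left out. Each such fit also had fewer arrays, and the 2 were not told apart. When replicates 1 to 5 of both lines were left out in turn, 1 or 2 of the 5 calls were made. HSPE1 lost its call without replicate 3 (0.55, limma adjusted p = 0.091), DNAJB1 without replicate 1, 4 or 5, SDF2L1 without replicate 1, 2, 3 or 4, HSP90AA1 without replicate 2, 3, 4 or 5, and ERO1L without each of the 5. Without replicates 1 and 2 of H1299 alone, a choice made after seeing the data, 3 calls were made. With all groups in 1 fit and the slide as a random block, also chosen after seeing the data, HSPE1 kept its call (0.58, limma adjusted p = 0.0542) and the other 4 genes lost theirs. With the slide as a block in that fit no member passed, HSPE1 had 0.54 (limma adjusted p = 0.3353), and ERO1L turned to 0.40 (limma adjusted p = 0.6534).

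The classical reporters of ER stress did not pass in this comparison. HSPA5, which encodes BiP, the main Hsp70 of the ER, had log2 levels of 4.13, 3.77, 3.86, 3.37 and 3.40 in H1299 CTL. In H1299shRAD9 CTL it had 3.53, 3.53, 4.19, 4.15 and 3.90. The groups overlapped widely, and the log2 difference was 0.16, with a 95% interval from -0.25 to 0.56. DNAJB9, an ER Hsp40 that is a target of XBP1, had 3.88, 4.15, 3.98, 3.40 and 3.05 in H1299 CTL. In H1299shRAD9 CTL it had 3.68, 3.70, 3.44, 3.83 and 3.58, and the log2 difference was -0.05, with an interval from -0.47 to 0.38.

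XBP1, the factor that IRE1 activates by splicing, separated the parental arrays from each other. It had log2 levels of 7.06 and 7.18 in replicates 1 and 2 of H1299 CTL and of 5.25, 5.26 and 5.22 in replicates 3 to 5. In H1299shRAD9 CTL it had 5.42, 5.59, 5.75, 5.86 and 5.66. Replicates 1 and 2 of H1299 were above all 5 H1299shRAD9 arrays and replicates 3 to 5 were below them, so that the difference of -0.34 (SE 0.39) describes neither set. HERPUD1, an ER membrane protein of the degradation machinery, was also highest in replicates 1 and 2, with 7.04, 7.72, 6.15, 5.84 and 5.81 in H1299 CTL. In H1299shRAD9 CTL it had 6.19, 6.07, 5.98, 6.13 and 5.95, and the difference was -0.45 (SE 0.32). Without replicates 1 and 2 of H1299, a choice made after seeing the data, the difference of XBP1 became 0.41 and that of HERPUD1 became 0.13.

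HSPA1A, the stress inducible Hsp70, had log2 levels of 7.47, 5.74, 7.60, 7.50 and 7.37 in H1299 CTL. In H1299shRAD9 CTL it had 7.38, 6.99, 7.79, 7.93 and 8.22. The groups overlapped, and the log2 difference of 0.52 had an interval from -0.24 to 1.28. HSPA1B is a nearly identical copy, and the probes of both may read the RNA of either. HSPA8, the constitutive Hsp70, had 8.29, 8.07, 8.24, 8.29 and 8.35 in H1299 CTL. In H1299shRAD9 CTL it had 8.37, 8.35, 8.08, 8.46 and 8.53, and the log2 difference was 0.11. A dimmer HSPA8 probe passed with 0.87 (limma adjusted p = 0.0258) at a level below the array median.

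**Figure D2:**
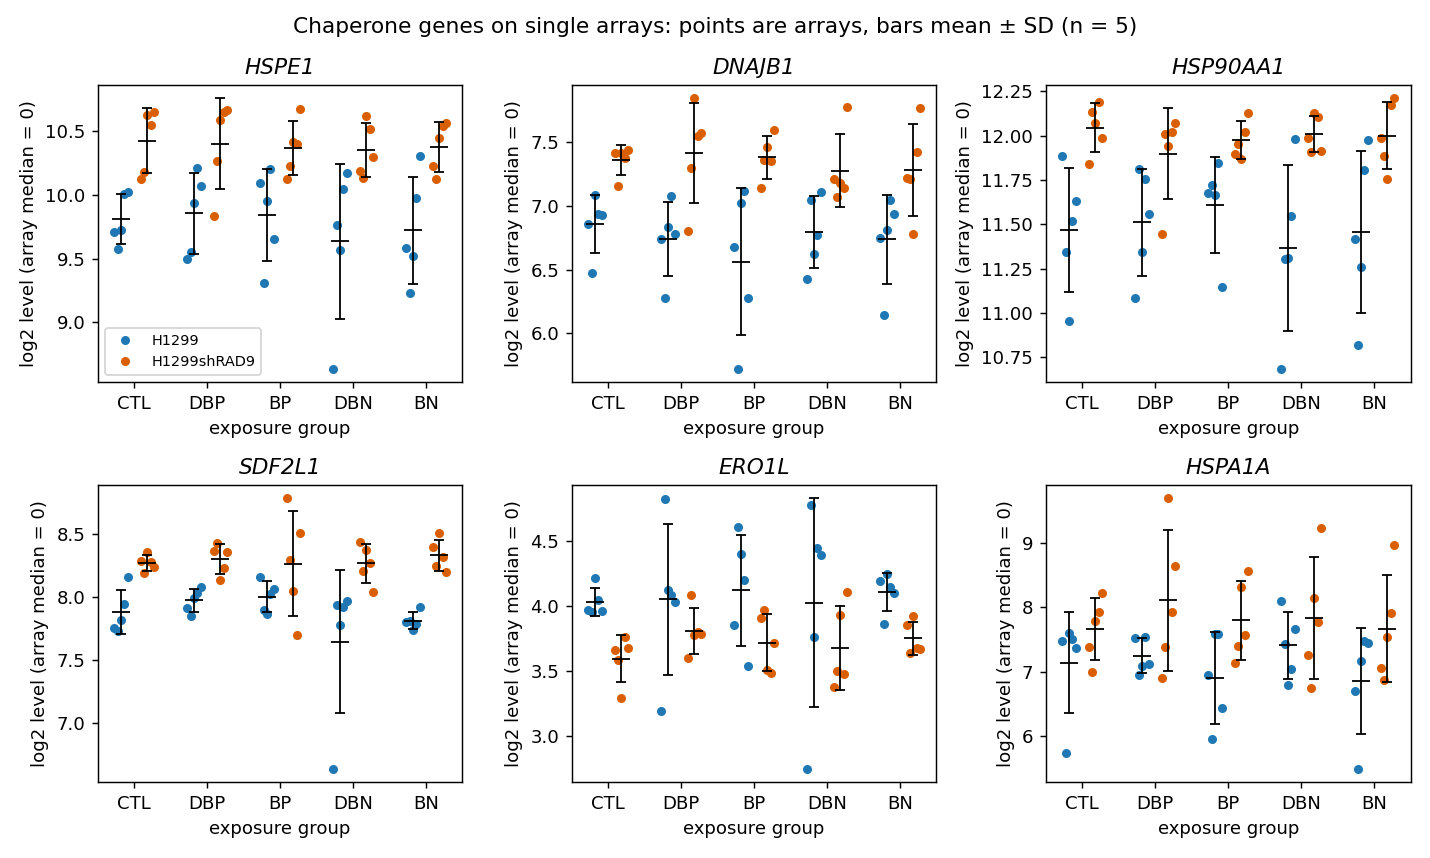
log2 levels relative to the array median (y axis) of HSPE1, DNAJB1, HSP90AA1, SDF2L1, ERO1L and HSPA1A in the 5 exposure groups (x axis), with H1299 in blue and H1299shRAD9 in orange, points for arrays and black bars for the mean ± SD (n = 5). HSPE1, DNAJB1, HSP90AA1, SDF2L1 and HSPA1A have the higher mean in H1299shRAD9 and ERO1L the lower mean in all 5 groups with this scaling.

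The other members did not pass in CTL. Among the ER chaperones and their partners, CRELD2 had a log2 difference of 0.43 (SE 0.17) and MANF, a secreted stress factor, had 0.25 (SE 0.12). DNAJC3, an inhibitor of PERK, had -0.28 (SE 0.10) with no overlap of the groups. Among the folding enzymes, P4HB had 0.28 (SE 0.11) and PDIA6 had -0.33 (SE 0.14), both disulfide isomerases. EDEM1, which extracts misfolded glycoproteins, had -0.68 (SE 0.25, limma adjusted p = 0.0866), the difference furthest from 0 among the members in this comparison. HSPB1, the small heat shock protein Hsp27, had -0.42 (SE 0.23) while the other 10 cytosolic genes were on the higher side with this scaling, HSPA8 not so with quantile normalization or normexp.

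The same contrast in the irradiated and bystander groups used arrays that the CTL comparison did not, but these arrays are not independent of CTL. The mean correlation of same-numbered arrays with CTL was 0.47 to 0.52 in H1299shRAD9 and 0.15 to 0.42 in H1299. In BN, 2 of 37 members passed (5.41%, beside 7.52% of all features), both higher in H1299shRAD9. With quantile normalization 1 passed, ERO1L, which was lower, with 75th percentile scaling 1 was higher (SDF2L1) and 1 lower (ERO1L), and with normexp 0 passed. SDF2L1 had 7.80, 7.81, 7.74, 7.79 and 7.93 in H1299 BN and 8.40, 8.25, 8.51, 8.32 and 8.20 in H1299shRAD9 BN. The groups did not overlap, and the log2 difference was 0.52 (SE 0.11, limma adjusted p = 0.0222). HSPE1 had 9.58, 9.23, 9.52, 9.98 and 10.31 in H1299 BN and 10.22, 10.12, 10.45, 10.54 and 10.57 in H1299shRAD9 BN. One H1299 array, replicate 5, lay within the H1299shRAD9 range, and the log2 difference was 0.66 (SE 0.19, limma adjusted p = 0.066). The call of HSPE1 was lost without each of replicates 1 to 4, and that of SDF2L1 without replicate 4 (limma adjusted p = 0.1075). Both calls remained with all groups in 1 fit and the slide as a random block (limma adjusted p = 0.0693 and 0.0874), and neither with the slide as a block (limma adjusted p = 0.4392 and 0.3249).

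In DBP, limma called 0 of 37 members, where 5.39% of all features were called, and 10 members and 20.6% of all features had an unadjusted p under 0.05. In BP it called 0, beside 6.57% of all features, and 8 members and 22.4% of all features were under 0.05. In DBN it called 0, beside 2.47% of all features, and 5 members and 17.1% of all features were under 0.05. With all groups in 1 fit and the slide as a block, 5 members were called for DBP and 1 each for BP and DBN. All were higher in H1299shRAD9, and DNAJB1 was among them each time. The share of all features called in that fit is not given here, so these counts have no background beside them. On the slide that held both lines of BP, 1 array each and so with no test, 36 of 37 members were higher in H1299shRAD9, beside 67.2% of all features, with a median difference of 0.56, beside 0.25. The differences of DNAJB1, at 0.67, 0.82, 0.48 and 0.54 in DBP, BP, DBN and BN, and those of HSPE1, at 0.55, 0.53, 0.71 and 0.66, kept the direction seen in CTL, and for DNAJB1 they did not pass. In BP the SD of DNAJB1 was 0.58 in H1299 and 0.17 in H1299shRAD9 (n = 5).

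By role, the cytosolic and mitochondrial genes lay on the higher side most often. Of the 11 cytosolic genes, 9 were higher in H1299shRAD9 in all 5 exposure groups, BAG3, the co-chaperone of Hsp70, was higher in 4 and HSPB1 was lower in 5. Both mitochondrial genes were higher in 5. Over all 37 members, 20 were higher in all 5 groups (54.1%) and 6 were lower in all 5 (16.2%), beside 38.4% and 18.3% of all features. The 6 lower genes were ERO1L, PDIA6, ATF6, XBP1, EDEM1 and HSPB1, of which 5 act in the ER. These are descriptions, and no test was made of the list. Same-numbered arrays of a line are not independent, so the 5 exposure groups are not 5 separate observations.

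These counts depended on the arrays that stood apart and on scaling. Without replicate 2 of H1299, 20 members were higher in all 5 groups and 4 were lower, and XBP1 and ATF6 were no longer among the lower ones. Without replicates 1 and 2 of H1299, 21 were higher and 6 lower, with 7 of 11 cytosolic genes among the higher. In CTL the number of members on the higher side was 23 of 37 with the main scaling, 20 with quantile normalization and 17 with normexp background correction, as the median of all features moved from 0.06 to 0.02 and -0.06. HSPE1, HSP90AA1, DNAJB1, SDF2L1 and ERO1L had the same direction under these scalings, but not all kept their calls. With quantile normalization ERO1L alone did, and HSPE1 had 0.46 and DNAJB1 0.40. With normexp HSPE1 and ERO1L did, and DNAJB1 had 0.36 and SDF2L1 0.24.

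The 5 ER genes with a full ER stress element other than XBP1 and HSPA5 had CTL differences of -0.08 (HSP90B1), 0.43 (CRELD2), 0.04 (CALR), -0.04 (CANX) and -0.33 (PDIA6), so the genes with the element lay on both sides of 0. The 5 genes with a heat shock element, HSPA8, HSP90AA1, HSP90AB1, DNAJA1 and HSPD1, had 0.11, 0.58, 0.24, 0.22 and 0.36. All were on the higher side with this scaling, although HSPA8 turned to -0.0505 with quantile normalization and -0.0268 with normexp. Of all genes, 9386 of 15795 were on that side. The searched cytosolic and mitochondrial genes without the element were also higher, such as HSPE1 (0.62) and HSPA1B (0.55), apart from HSPB1 (-0.42). A link of motif and level was not tested.

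**Figure D3:**
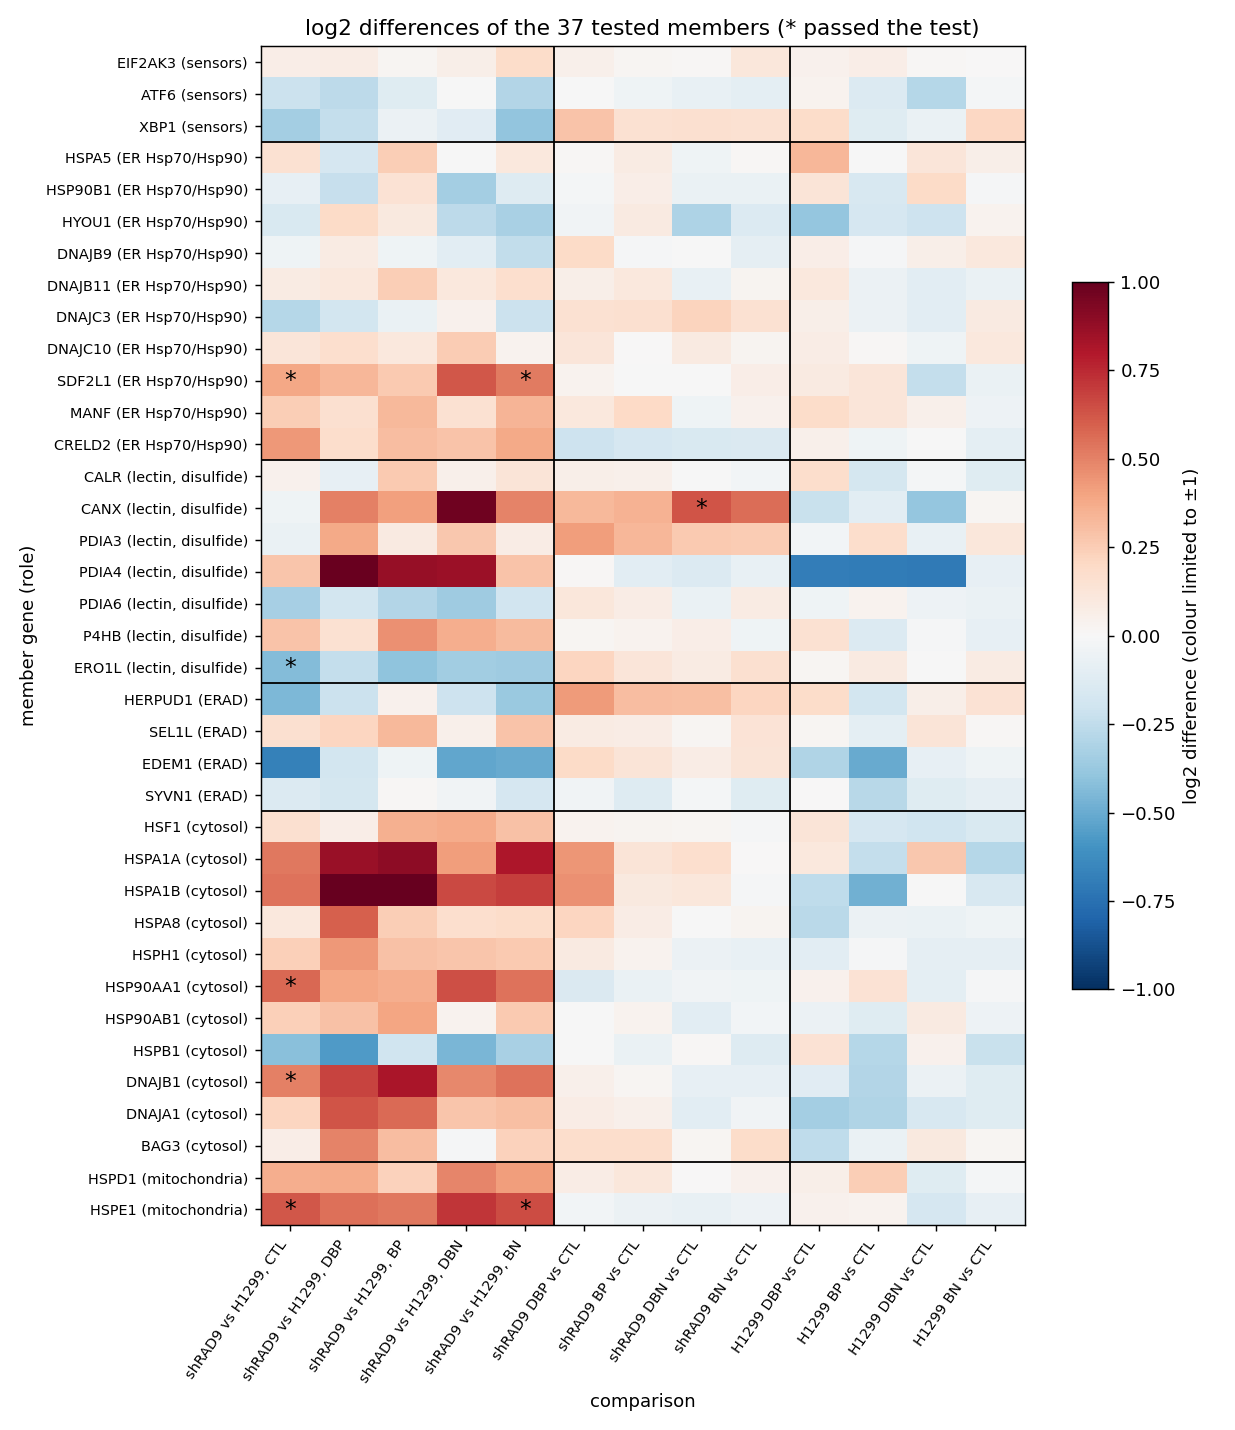
log2 differences of the 37 tested members (rows, ordered by role) in 13 comparisons (columns), with red for higher and blue for lower, colours limited to 1 log2 unit and asterisks for calls. The left block compares the lines in the 5 exposure groups, and the middle and right blocks compare the exposed groups with CTL in H1299shRAD9 and H1299.

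Few of these genes passed the test after exposure at 4 h. In H1299shRAD9 1 of 37 members passed in DBN against CTL (2.7%, beside 2.93% of all features), which was CANX, the gene of the membrane lectin calnexin. It had log2 levels of 2.41, 2.54, 2.77, 2.65 and 3.07 on the CTL arrays of replicates 1 to 5 and of 3.26, 3.06, 3.48, 3.64 and 3.15 on the DBN arrays. It was higher in 5 of 5 pairs, with a log2 difference of 0.63 (SE 0.14, limma adjusted p = 0.0812) from the fit with the replicate number as a block, and without the block it did not pass (limma adjusted p = 0.1293). The call was also lost without each of replicates 1 to 4, in fits with fewer arrays.

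The CANX probes disagreed. The probe above lies at chr5:179137006-179137065 (hg19, plus strand), and the other lies at chr5:179158058-179158117. The second probe had log2 levels of 1.65, 1.73, 1.77, 2.19 and 2.11 in CTL and of 0.91, 1.71, 1.97, 1.65 and 2.17 in DBN, with a log2 difference of -0.21 (limma adjusted p = 0.615). The first probe had 0.33, 0.35 and 0.56 in DBP, BP and BN, which did not pass. The call therefore belonged to 1 of the probes and not to both.

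In the other H1299shRAD9 comparisons with CTL, limma called 0 of 37 members. All features were called at 1.3% in DBP, 1.62% in BP and 0.0299% in BN. An unadjusted p under 0.05 was reached by 4 members in DBP, 3 in BP and 1 in BN, beside 13.9%, 10.8% and 13.5% of all features. HERPUD1 was higher in 5 of 5 pairs in DBP, BP and DBN, at 0.42 (SE 0.11), 0.31 (SE 0.09) and 0.30 (SE 0.11), with limma adjusted p of 0.1601, 0.2312 and 0.2797. PDIA3, a disulfide isomerase of glycoproteins, had 0.42 (SE 0.10) in DBP and 0.33 (SE 0.09) in BP, with limma adjusted p of 0.1196 and 0.2004. HSPA5 moved little in any of them, between -0.04 and 0.09.

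HSP90AA1 differed by probe in these comparisons. Its brightest probe, which was saturated on 14 of the 25 H1299shRAD9 arrays, had differences between -0.15 and -0.04 from CTL. A second probe (chr14:102549453-102549512, hg19, minus strand) had log2 levels of 9.40, 9.09, 9.42, 9.55 and 9.79 in CTL and of 9.91, 9.66, 10.31, 10.41 and 10.19 in DBN, higher in 5 of 5 pairs. It passed in DBP (0.60, limma adjusted p = 0.0948), in BP (0.60, limma adjusted p = 0.0486) and in DBN (0.65, limma adjusted p = 0.0473), and had 0.57 in BN (limma adjusted p = 0.1747).

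The dimmest HSP90AA1 probe (chr14:102550163-102550222) had 8.39, 8.20, 7.98, 8.02 and 7.96 in CTL and 8.83, 8.64, 8.98, 9.06 and 9.01 in DBN, with no overlap of the groups. It passed in BP (0.71, limma adjusted p = 0.0322) and DBN (0.80, limma adjusted p = 0.0471), and had 0.79 in DBP and 0.71 in BN, which did not pass. Both probes were singled out after their values were seen, and the 4 comparisons share the CTL arrays. In H1299 these probes had differences from CTL between -0.48 and 0.15, none of which passed, and the interactions of cell line and exposure had limma adjusted p between 0.1415 and 0.7733. The same 2 probes passed between the lines in DBN, at 1.18 and 1.25 (limma adjusted p = 0.0531 and 0.0479), and not in CTL.

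In H1299, limma called 0 of 37 members in each comparison with CTL. An unadjusted p under 0.05 was reached by 1 member in BN, where 0% of all features were called, and by 0 members in the other groups, where 0.0349% (DBP), 0% (BP) and 0.01% (DBN) of all features were called. Among all features 3.42% were under 0.05 in BN, 5.57% in DBP, 5.68% in BP and 3.25% in DBN. The 1 member was XBP1, with 0.21 (SE 0.09, limma adjusted p = 0.993). PDIA4, a disulfide isomerase, had differences of -0.69, -0.70 and -0.71 in DBP, BP and DBN, the comparisons that held the replicate 2 arrays described above.

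The tests of the difference between the lines in their response called 0 of 37 members. For DBP 3 members had an unadjusted p under 0.05 (0% of all features called) and for DBN 1 did (0.0149% called). For BP and for BN 0 members did, and 0% of all features were called in both. The shares of all features under 0.05 were 7.74% for DBP, 7.05% for DBN, 6.51% for BP and 7.3% for BN. The 1 in DBN was CANX, at 1.02 (SE 0.32, limma adjusted p = 0.2996). Its level in H1299 DBN was 1.24 in replicate 2, an array that stood apart, and 2.28 to 2.89 in the others. It is thus not shown that the responses of these genes differed between the lines.

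Directly irradiated and bystander cells were compared as pairs of the same replicate number, and limma called 0 of 37 members in each comparison. The labels do not say that same-numbered arrays came from the same dish. Such arrays deviated together (correlation over 0.1) in 3 of 5 pairs for DBN and BN of H1299. In each other comparison of this kind, 5 of 5 pairs did. In H1299shRAD9 0 members had an unadjusted p under 0.05 in DBP against BP and 0 in DBN against BN, beside 0.0797% and again 0.0797% of all features called, and 4.16% and 2.24% of all features under 0.05. In H1299 2 did in DBP against BP (0% called), namely CALR and HSPB1, and 0 did in DBN against BN (0.005% called), beside 6.94% and 2.7% of all features. Between bystander positive and negative dishes of H1299shRAD9, 0 members had an unadjusted p under 0.05 in DBP against DBN and 0 in BP against BN, and 0% of all features were called in both, with 0.473% and 0.364% under 0.05.

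The replicate number went with more of the spread of these genes than the exposure did. In H1299shRAD9 the median member had 45.2% of its sum of squares over the 25 arrays between replicate numbers and 5.19% between exposure groups, beside 35.2% and 8.62% for all features. In H1299 the values were 34.2% and 7.01% for the members and 31.2% and 11.1% for all features. The share of replicate number was the larger one for 33 of 37 members in H1299shRAD9 and for 32 of 36 in H1299. PDIA3, CANX and DNAJB9 were among the genes with a large share of exposure in H1299shRAD9 (30.2%, 32.1% and 29.2%), and HERPUD1 had the largest, 47.9%.

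**Figure D4:**
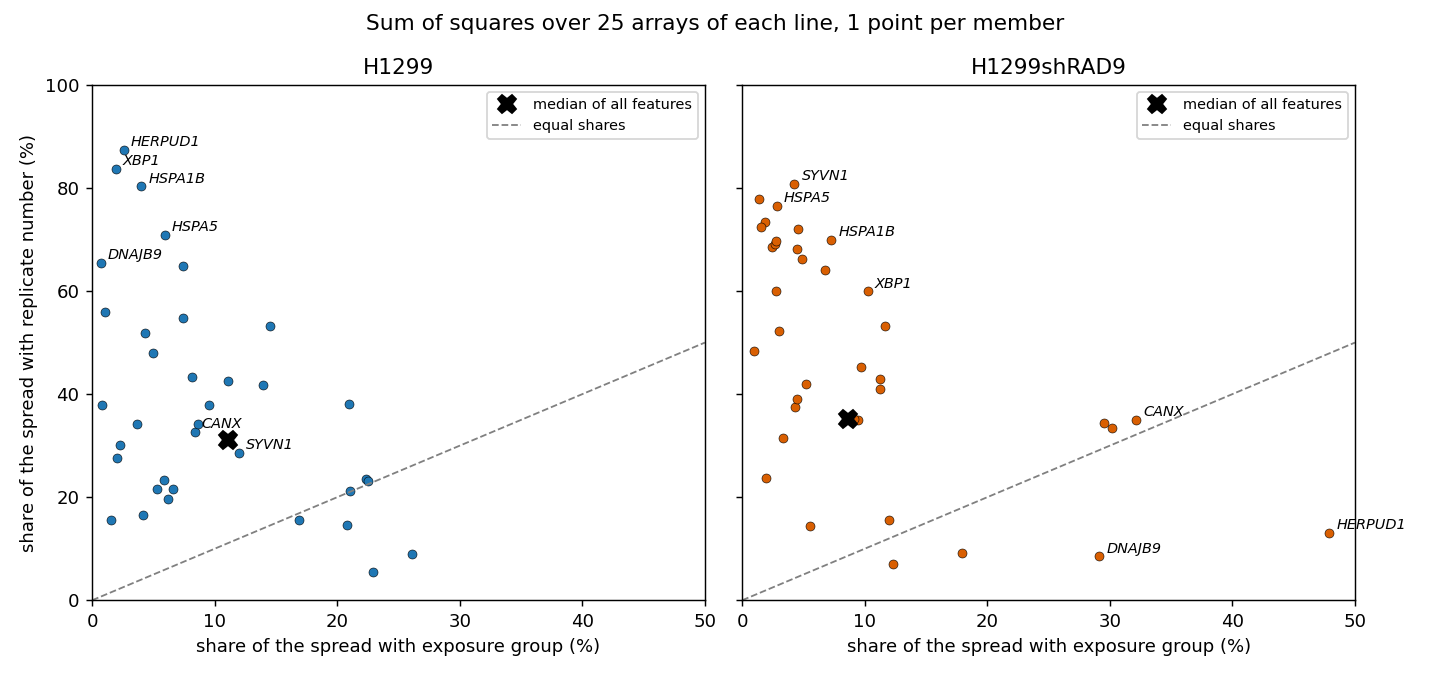
Share of the sum of squares that lay between exposure groups (x axis, %) and between replicate numbers (y axis, %) over the 25 arrays of each line, 1 point per member, with the median of all features as a black cross and a dashed line of equal shares. Most members lie above the line in both H1299 and H1299shRAD9, and HERPUD1 in H1299shRAD9 lies far below it.

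In H1299 XBP1 and HERPUD1 were high in most arrays of replicates 1 and 2. They and the other genes named here were singled out after their values were seen. The mean of XBP1 over the 10 arrays of replicates 1 and 2 was 1.61 above its mean of 5.39 over the 15 arrays of replicates 3 to 5, and the replicate number took 83.7% of its sum of squares. HERPUD1 was 1.37 higher (87.5%). XBP1 was at 5.39 in BP replicate 1 and at 5.54 in DBN replicate 1, near the level of replicates 3 to 5. HSPA5 and DNAJB9 were high in replicate 2 more than in replicate 1. The means of the 5 arrays of replicates 1 to 5 were 3.96, 4.54, 3.78, 3.39 and 3.35 for HSPA5, and 3.53, 4.49, 3.90, 3.47 and 3.29 for DNAJB9.

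The other ER genes shared this only in part. Of the 24 ER members, 15 had a higher mean in replicates 1 and 2 than in 3 to 5 and 9 a lower one. With quantile normalization the split was 13 and 11. Among the higher were SEL1L at 0.35 and HSP90B1 at 0.27. Among the lower were PDIA4 at -1.43, CANX at -0.50, EDEM1 at -0.45 and HYOU1 at -0.40. All 13 cytosolic and mitochondrial members had a lower mean in replicates 1 and 2, with a median difference of -0.38, which held with 75th percentile scaling, quantile normalization and normexp. These counts describe 5 replicate numbers and were not tested. The share of all features with a lower mean in replicates 1 and 2 was not counted, so they have no background beside them. They also include the replicate 2 arrays that stood apart. Across replicate 2 of H1299, XBP1 ran from 7.18 in CTL to 7.89 in DBP, so that sham irradiated and irradiated cells were alike in this.

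PDIA4 and HSPA1B were low on replicate 2 arrays of H1299. PDIA4 had log2 levels of 2.08, 1.66 and 1.86 on the replicate 2 arrays of H1299 DBP, BP and DBN, and at least 4.44 on every other H1299 array. HSPA1B had 2.95, 2.02 and 3.39 on the same arrays, 4.11 in CTL and 3.90 in BN of replicate 2, and at least 4.98 on the other H1299 arrays. In H1299shRAD9 the order of the replicates differed for some genes and was shared by others. XBP1 had means of 5.55 and 5.98 and HSPA5 of 3.62 and 4.04 in replicates 1 and 2 against 3 to 5, the reverse of H1299. HSPB1 was also reversed, with 9.49 and 8.73. HSPA1A was lower in replicates 1 and 2 of both lines, with 7.11 and 8.28 in H1299shRAD9 and 6.83 and 7.29 in H1299. The other cytosolic and mitochondrial members were likewise lower in both lines, apart from DNAJA1, which was 0.17 higher in H1299shRAD9. The replicate 2 arrays of H1299 CTL, BN, DBP and BP shared 1 slide and that of DBN lay on another, and the part of the slide in these patterns was not tested.

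**Figure D5:**
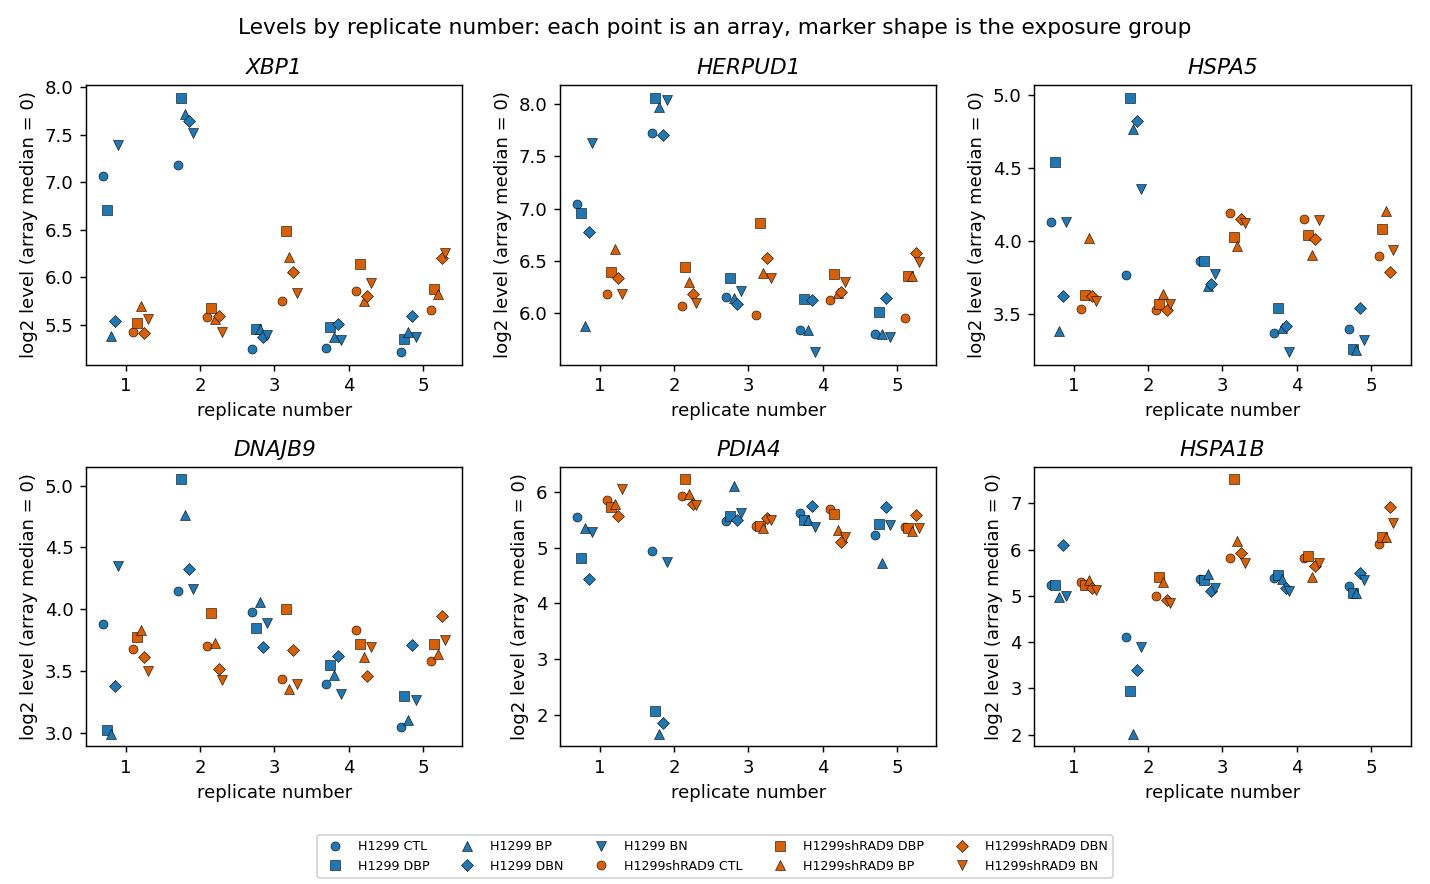
log2 levels relative to the array median (y axis) of XBP1, HERPUD1, HSPA5, DNAJB9, PDIA4 and HSPA1B by replicate number (x axis), with 1 point per array, blue for H1299, orange for H1299shRAD9 and marker shapes for the exposure groups. XBP1 and HERPUD1 are high in replicates 1 and 2 of H1299 apart from BP of replicate 1 and, for XBP1, also DBN of replicate 1, and PDIA4 is low on 3 replicate 2 arrays of H1299.

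With these arrays set aside, differences between the lines changed in size. The difference of PDIA4 between the lines was 0.98, 0.87 and 0.86 in DBP, BP and DBN with all arrays and 0.34, 0.12 and 0.16 without replicate 2 of H1299. That of HSPA1B was 1.25, 1.13 and 0.66 with all arrays and 0.79, 0.49 and 0.25 without replicate 2. None of these had passed the test with all arrays.

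Other genes of the same pathways, from lists that held no member, were counted beside them. Of 46 other cytosolic and mitochondrial chaperone genes, 2 were higher and 1 was lower in H1299shRAD9 CTL than in H1299 CTL. This was 6.52% of the list, below the 13% of all features called. The genes called were CCT2, a subunit of the cytosolic chaperonin (0.39), CHORDC1, a partner of Hsp90 (0.52), and DNAJB5 (-0.60). Of 47 other ER stress and ER folding genes, 0 were higher and 1, CREB3 (-0.51), was lower (2.13%, also below 13%). The lists had median log2 differences of 0.14 and -0.02, beside 0.06 over all features.

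The PERK and ATF4 branch answers ER stress and amino acid shortage alike. Of its 20 genes, 3 were lower in H1299shRAD9 CTL (15%, beside 13% of all features), namely DDIT4 (-1.91), NUPR1 (-3.12) and PHGDH (-1.37), and the median was -0.85. Against CTL in H1299shRAD9, DBP had 2 genes that passed (10%), BP and DBN had 3 each (15%) and BN had 0, all of them higher, beside the shares of all features given above. The medians were 0.55, 0.33, 0.43 and 0.28, and the comparisons share the 5 CTL arrays, so their directions are not separate evidence. CHAC1, which degrades glutathione, rose by 1.63, 1.18 and 1.54 in DBP, BP and DBN, and ASNS, the asparagine synthetase, passed in the same 3. TRIB3, an inhibitor of ATF4, passed in BP (0.54) and DBN (0.49). Of the 47 other ER genes only UGGT1, the glucosyltransferase that tests glycoprotein folding, passed in these comparisons, in BP (0.64) and DBN (0.70). It made up 2.13% of that list in each, beside 1.62% and 2.93% of all features. In H1299 the branch had medians of 0.23, -0.21, 0.02 and 0.18, with 0 calls by limma and 5, 1, 0 and 4 genes at an unadjusted p under 0.05. With normexp the medians of DBP and BN turned to -0.06 and -0.58, and with quantile normalization they were 0.20 and 0.24. DBP and BN of H1299 hold the 3 arrays that normexp compressed, DBP replicate 3 and BN replicates 1 and 5. The part of these arrays in the turn was not tested.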

How the data were processed

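RNA from 50 samples was hybridised to 1-colour human arrays of 44495 spots, of which 43118 spots (34127 probes) were not controls. Per the file headers, the intensity values are processed signals of Agilent Feature Extraction, which the authors deposited with background already subtracted. The log2 values the authors deposited as a table were used as an alternative only. Columns with values of samples that were not used numbered 0.

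From the processed intensity, log2 was taken, spots of a probe were averaged and the median of each array over its probes was subtracted. A probe passed where under 25% of arrays were not well above background, which left 20079 features, and a gene was given by its brightest probe. The number of arrays limits the precision. Groups came from the labels. limma 3.58.1 in R 4.3.3 was run over all features with Benjamini-Hochberg adjustment, at an unadjusted p under 0.005 between lines and 0.006 for irradiation, and a false discovery rate of 10%. After the study's methods, the replicate number was a block in comparisons with CTL and between both surfaces of a dish. Same-numbered arrays deviated together (correlation over 0.1) in 5 of 5 pairs in each H1299shRAD9 comparison with CTL (mean correlations 0.47 to 0.52) but in 3 of 5 pairs for BP and DBN in H1299. The fits were tested on simulated data. P-values measure the spread between these samples.

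Every member that passed a test is named, with single arrays for the 3 largest changes of a comparison and always in CTL for HSPA5, HERPUD1, DNAJB9, XBP1, HSPA1A and HSPA8. The members and lists were chosen with earlier results of these data known. Alternatives were other scalings, filters, fits and left-out replicates. Promoter sequences are from RefSeq.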

Additional observations from a re-analysis of the deposited data

Results flagged for a closer look

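Among 34 groups of 5 arrays that were examined, 5 held 1 array that stood off. Its gap to its nearest neighbour took more than 0.71 of the range of the group. The 34 were genes and groups whose single arrays the text gives, and some were chosen after their values were seen. Chance gives such a gap in about 1 in 20 groups, a rate that is no test for groups chosen in this way. HSPA1A was low in replicate 2 of H1299 CTL (5.74, with the next array at 7.37). DNAJB1 was low in replicate 2 of H1299shRAD9 CTL (7.16, next 7.38). PDIA4 was low in replicate 2 of H1299 DBP (2.08, next 4.81). HSPA1B was low in replicate 2 of H1299 DBP (2.95, next 5.06) and in replicate 2 of H1299 BP (2.02, next 4.98). All but the DNAJB1 array are replicate 2 of H1299.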

How the results depend on the processing

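Of the counts of members called, 373 stayed within 1.5 times and 62 did not. The main count was 0 in most comparisons, and a 0 that stayed 0 is among the 373, so this tally does not measure how stable the calls were. Of the values of named members, 180 kept direction and side of the threshold, 88 kept direction and lost the call and 15 changed sign, 1 of the last a called value (ERO1L). Equal counts need not be the same genes, and the counts of members in this paragraph are given without the share of all features. All groups in one fit with slide as a block or as a random block, added after seeing the data, gave 0 and 1 calls in CTL, 5 and 5 in DBP, 1 and 3 in BP, 1 and 5 in DBN, and 0 and 2 in BN. In CTL between the lines the count of 5 became 1 with quantile normalization, all groups in one fit or slide as a random block, 2 with the authors' values or the 1.3-fold criterion, 3 without a background criterion, 1 to 2 with a replicate left out, and 3 without H1299 replicate 2 or replicates 1 and 2 (both added after seeing the data). In DBP the 0 calls became 1 with all groups in one fit without slide and 0 to 1 with a replicate left out. In BP they became 2 with all groups in one fit, the mean of all features of a gene or the median over spots, and 0 to 1 with a replicate left out. In DBN they became 4 with all groups, and 1 with the mean of features or without H1299 replicates 1 and 2. In BN the count of 2 (both higher) became 1 with quantile normalization (ERO1L, lower), and 1 with the gIsPosAndSignif criterion, no criterion, the mean of features or without H1299 replicates 1 and 2, 0 with normexp, the authors' values or the 1.3-fold criterion, and 0 to 2 with a replicate left out. In H1299shRAD9 DBP against CTL the 0 calls became 1 with normexp and 0 to 2 with a replicate left out. In DBN against CTL the 1 call became 0 with 75th percentile scaling, quantile normalization, gIsPosAndSignif, no criterion, all groups or slide as a block, and 0 to 2 with a replicate left out. In DBP against DBN slide as a block gave 2. The cause was not tested.

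Values that changed sign in CTL were HSPA8 (-0.0505 with quantile normalization, -0.0268 with normexp), HSPA5 (-0.0022 to 0.3426 with a replicate left out), DNAJB9 (-0.1904 to 0.0787 with a replicate left out, 0.0132 with the median over spots, 0.07 without H1299 replicate 2, 0.17 without replicates 1 and 2), and, without H1299 replicates 1 and 2, HERPUD1 (0.13) and XBP1 (0.41). With all groups in one fit, slide as a block turned ERO1L to 0.40, HERPUD1 to 0.13, DNAJB9 to 0.61 and XBP1 to 0.26, and slide as a random block turned DNAJB9 to 0.0612. Normexp compressed 3 H1299 arrays, BN replicates 1 and 5 and DBP replicate 3 (SD 1.54 to 2.1, beside 2.56 to 3.27 on the other 47 arrays).

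With the replicate block added, calls between the lines were 2 in CTL, 4 in BN, 1 each in DBP and DBN, and 0 in BP, although same-numbered arrays of the lines did not deviate together (mean correlations from -0.06 to 0.07). Without the block DBN against CTL in H1299shRAD9 gave 0 member calls, and calls over all features fell from 261 to 23 in DBP, 325 to 0 in BP, 588 to 134 in DBN and 6 to 0 in BN. Within 1 exposure group, slide as a block between the lines and slide as a random block outside CTL could not be fitted.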
